A study of Mus musculus with 12 samples.

Results

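A set of 10 genes that astrocytes are known to raise when they become reactive, listed in the rule as Gfap, Vim, Serpina3n, Osmr, Cd44, S1pr3, Timp1, Lcn2, Cd109 and Aspg, were followed in mouse prefrontal cortex after the gene for transthyretin, Ttr, had been overexpressed or knocked down. They were chosen by name for their known place in astrocyte reactivity, with earlier results of these data known. They make up 10 of the 55401 genes in the count table. All 10 had counts, and 9 of them are among the 18289 genes with enough counts to be tested, Timp1 being the one that is not. Astrocytes are the glial cells that take up transmitters, buffer ions and wrap blood vessels. After injury, infection or inflammation they enlarge, build up intermediate filaments and secrete protease inhibitors and other proteins, a state called reactive astrogliosis. Signals through the gp130 family of cytokine receptors and the transcription factor STAT3 are a well-known route into that state, and in healthy mouse cortex GFAP is strongest in astrocytes of the white matter and beneath the pia.

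Every sample was prefrontal cortex of a male C57BL/6J mouse aged 14 weeks. All mice had undergone surgery on both sides of the dorsomedial prefrontal cortex and received an adeno-associated virus (AAV, a vector for gene delivery) 4 weeks earlier, at 0.1 µL per min for 5 min. Each of the 3 groups holds 4 libraries: control, given an AAV that makes green fluorescent protein (GFP) from the CAG promoter; overexpression, given an AAV that makes GFP and Ttr from the same promoter; and knockdown, given an AAV with a short hairpin RNA against Ttr under the U6 promoter and GFP under CAG. Neither promoter is restricted to one cell type, no uninjected or sham-operated group is part of the data used here, and the needle track, the virus and GFP are shared by all 3 groups, so the levels below are those of cortex that had been injected. The control virus came from another supplier than both Ttr viruses, and an effect of the vector's source and an effect of Ttr cannot be told apart. The labels do not say that each numbered sample is a separate mouse, so the spread behind each p-value may be partly technical.

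Total counts ran from 19879629 to 37166146 per library. Ttr had 2121 to 20940 counts in overexpression libraries, 14 to 200 in controls and 3 to 47 in knockdown libraries. It was higher with overexpression than in controls by 7.01 ± 0.81 on the log2 scale (edgeR quasi-likelihood test, adjusted p = 0.0168), while knockdown differed from control by -1.41 ± 1.16 (adjusted p = 0.936), a value that turned to 0.60 without control replicate 2, the library with 200 counts. The overexpression call was lost with limma-voom (adjusted p = 0.173), with only the groups compared (0.264), with the vessel wall covariate described below (0.973), and without control replicate 1 (0.143), 3 (0.0922) or 4 (0.162) or overexpression replicate 3 (0.0506). The log2 value was 6.58 or more in each of these settings. A loss of the Ttr transcript in the knockdown group was thus not detectable. Markers of astrocytes were present throughout, with all 20 genes of an astrocyte identity list detected and a summed level of 6152 to 7593 CPM (counts scaled to one library size with TMM factors).

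None of the 9 tested reactive genes passed the test in any of the 3 comparisons (edgeR, Benjamini-Hochberg adjusted p below 0.05 over 18289 genes). The background was as low, with 0.00547% of all genes tested, 1 gene, called in each comparison. In overexpression against control and against knockdown that gene was Ttr, the target of the vector. No other gene was called there, so 0 of 9 does not set the members apart. The members lay mostly above control in the overexpression group, with 8 of 9 fitted log2 values above 0, beside 51.4% of all genes, and a median of 0.42, beside 0.00384 over all genes. In the knockdown group 5 of 9 were above 0, beside 51.8% of all genes, with a median of 0.08 beside 0.0047. Between both Ttr groups 7 of 9 were higher with overexpression, beside 50.1% of all genes, and the median was 0.42 beside 2e-04. At an unadjusted p below 0.05 there were 3 of 9 members with overexpression against control, all higher, beside 6.26% of all genes, 4.58% higher and 1.68% lower. For knockdown against control it was 1 higher and 1 lower of 9, beside 5.68% of all genes, 3.85% higher and 1.83% lower, and for overexpression against knockdown 3 of 9, all higher, beside 5.1%, 2.78% higher and 2.32% lower. Groups whose 4 and 4 libraries did not overlap were found for 0 of 9 members in overexpression against control, beside 1.88% of all genes higher and 0.837% lower. They were found for 1 of 9, Gfap, in knockdown against control, which was lower, beside 2.78% of all genes higher and 1.33% lower, and for 0 of 9 in overexpression against knockdown, beside 1.23% and 1.14%. DESeq2 and limma-voom called 0 of the 9 members in all 3 comparisons too. DESeq2 called 38, 43 and 11 of all genes in overexpression against control, knockdown against control and overexpression against knockdown. Limma-voom called 0 of all genes in overexpression against control and against knockdown, so its 0 of 9 there was fixed. The overexpression and knockdown comparisons share the same 4 control libraries, so their values are not independent of each other. The members were chosen with earlier results of these data known, so their shares beside those of all genes are a description only.

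**Figure D1:**
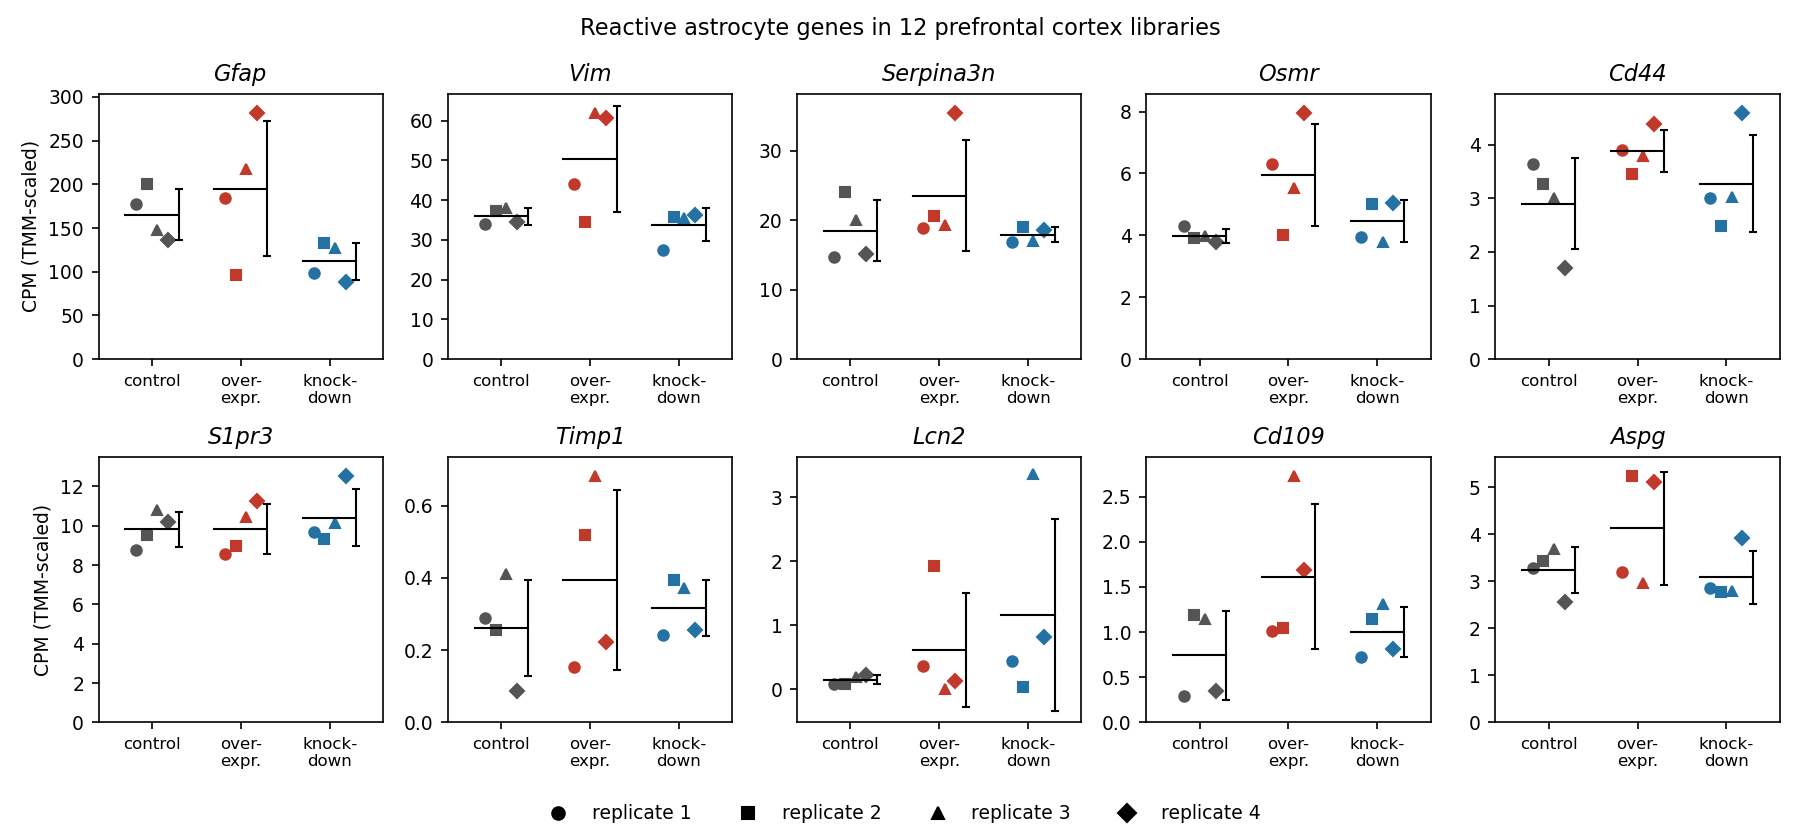
Level of each of the 10 genes in every library, in CPM on a linear axis, with points for the libraries (shape gives the replicate number), a horizontal line for the group mean and a bar for its SD (n = 4). In CPM the overexpression libraries spread most for Gfap, from 96.0 to 281, while relative to the mean they spread most for Lcn2. All 4 knockdown libraries lie below all 4 controls for Gfap alone, and Lcn2 is led by single libraries.

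Per transcript length, in TPM as deposited (counts over gene length, with the same sum in every library), the control cortex held the genes over a wide range. Gfap was the most abundant at 156 ± 24.5 TPM (SD, n = 4), followed by Vim at 40.9 ± 2.38, Serpina3n at 22.3 ± 5.09, S1pr3 at 5.48 ± 0.567, Aspg at 2.98 ± 0.439, Osmr at 1.82 ± 0.102 and Cd44 at 1.29 ± 0.368 TPM. From Gfap down to Cd44 each gene's lowest control library was above the next gene's highest. Timp1 at 0.739, Lcn2 at 0.396 and Cd109 at 0.317 TPM closed the order, and their control ranges overlapped with their neighbours', so the order of the last 4 genes is not resolved. In the knockdown group Lcn2 stood at position 5 by mean TPM, at 3.25 ± 4.29, a mean smaller than its SD.

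Gfap and Vim encode the intermediate filaments of the astrocyte skeleton. Gfap (ENSMUSG00000020932) spans chromosome 11 from 102887336 to 102900912, minus strand, and Vim (ENSMUSG00000026728) chromosome 2 from 13573927 to 13582826, plus strand (GENCODE annotation of GRCm38, as for all genes below). Vim is also made by vessel, meningeal and other mesenchymal cells. Gfap is the one tested member with a pair of groups that did not overlap, and S1pr3, described further on, the one with overexpression closest to control, so the 250 bases before the RefSeq start of each (GRCm38.p6, from the RefSeq promoter table) are given here, with capitals for the box GGGCGG that the factor Sp1 is known to bind. The Gfap stretch is chr11:102897201-102897450 on the minus strand and the S1pr3 stretch chr13:51408368-51408617 on the plus strand.
Gfap: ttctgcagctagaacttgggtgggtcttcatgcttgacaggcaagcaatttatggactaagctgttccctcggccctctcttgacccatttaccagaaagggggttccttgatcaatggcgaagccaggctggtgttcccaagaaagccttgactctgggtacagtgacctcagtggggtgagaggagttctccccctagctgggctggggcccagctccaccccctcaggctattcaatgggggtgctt
S1pr3: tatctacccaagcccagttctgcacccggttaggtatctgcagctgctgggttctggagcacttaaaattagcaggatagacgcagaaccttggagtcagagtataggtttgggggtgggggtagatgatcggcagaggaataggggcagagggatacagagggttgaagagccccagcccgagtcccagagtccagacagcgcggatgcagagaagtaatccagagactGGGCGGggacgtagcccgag
The S1pr3 box begins 20 bases before the start, and the Gfap stretch holds none. Such stretches were found for 9 of the 10 genes, all but Cd109. Those of Vim, Lcn2, Aspg and Osmr held annotated exons, and 5 held none. All but that of Serpina3n had a larger share of G and C than the median of all promoters, 52.4%. GGGCGG on either strand stood in 5 of the 9 (S1pr3, Osmr, Timp1, Lcn2 and Aspg), beside 32.7% of all 32851 promoters. The STAT motif TTCNNNGAA was in 0 of the 9, beside 7.02% of all promoters, and the AP-1 motif TGANTCA, searched on both strands as well, in 0 of the 9, beside 6.75%. These counts describe the letters of these windows only.

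Gfap reached 178, 199.9, 148 and 136 CPM in control replicates 1 to 4, 184, 96.0, 218 and 281 in the overexpression libraries, and 98.7, 133, 127 and 88.6 in the knockdown libraries. The highest knockdown library, at 133, was just under the lowest control, at 136, so those ranges did not overlap, while the overexpression libraries held both the highest value of all 12 and, in replicate 2, a value within the knockdown range. Knockdown differed from control by -0.56 ± 0.25 on the log2 scale (95% interval -1.11 to -0.018; unadjusted p = 0.0438, edgeR adjusted p = 0.864). Overexpression differed from control by 0.24 ± 0.25 (adjusted p = 0.912) and from knockdown by 0.80 ± 0.25, a 1.74-fold ratio (unadjusted p = 0.00751, adjusted p = 0.967). Without overexpression replicate 4 the value against control was -0.0070, and without replicate 2 it was 0.46.

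Oligodendrocyte genes, a measure of the white matter in a dissection, varied between the same libraries. The summed level of 10 such genes was 3791 to 9289 CPM in controls, 3743 to 5496 with overexpression and 2318 to 5417 with knockdown. All 10 had fitted values below 0 in both comparisons with control, with medians of -0.30 and -0.48. Of all genes tested, 51.4% were above 0 with overexpression and 51.8% with knockdown. Control replicate 2, the highest of all at 9289, had the most Gfap of the controls, while control replicate 4, next at 6861, had the least of them. Knockdown replicate 4, the lowest at 2318, had the least Gfap of all 12. The part of white matter in the Gfap values was not tested. In bulk tissue, fewer cells of a type and less RNA per cell cannot be told apart.

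Vim had 33.9, 37.3, 38.0 and 34.4 CPM in controls, 43.9, 34.5, 61.9 and 60.7 with overexpression, and 27.5, 35.8, 35.5 and 36.2 with knockdown. Overexpression replicates 3 and 4 stood far above every other library, replicate 1 above all controls, and replicate 2 among the controls. The difference from control was 0.48 ± 0.16 (1.40-fold; unadjusted p = 0.00851, edgeR adjusted p = 0.626) and from knockdown 0.57 ± 0.16 (unadjusted p = 0.00296, adjusted p = 0.855). Knockdown and control differed by -0.09 ± 0.16 (adjusted p = 0.983). Without overexpression replicate 2, the difference of Vim from control was 0.63 with an adjusted p of 0.0989, as for Osmr, the smallest among members over 24 alternative settings in that comparison.

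**Figure D2:**
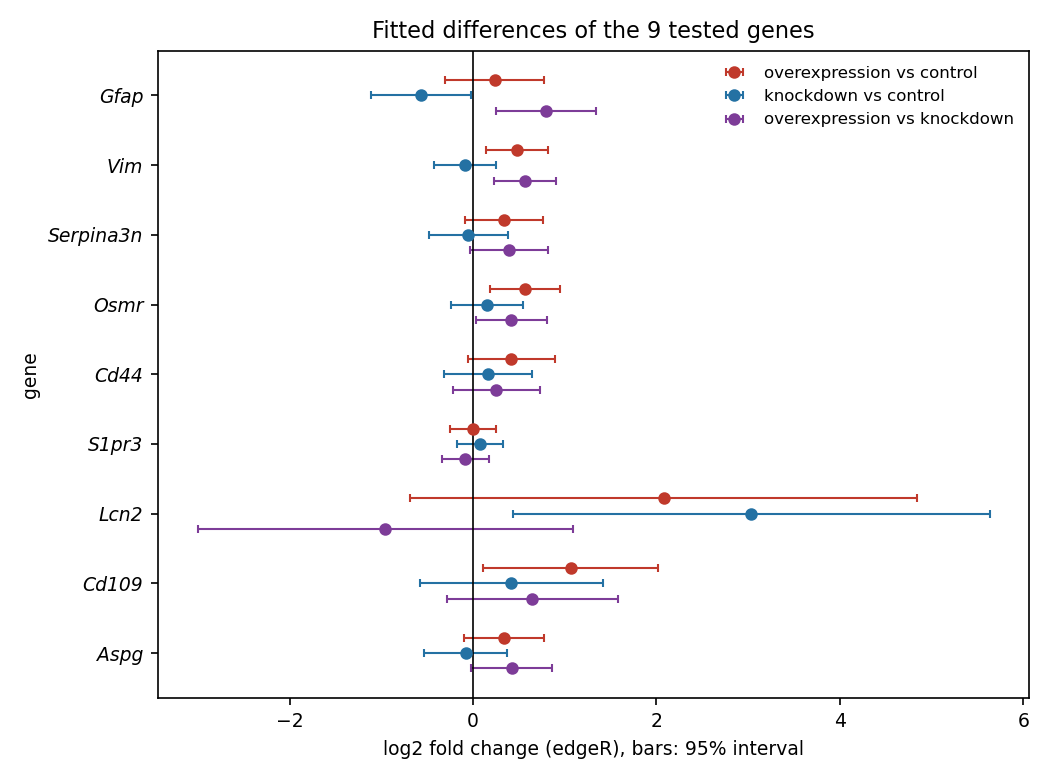
Fitted log2 fold changes of the 9 tested genes (x axis) in the 3 comparisons (colours), with bars for the 95% interval of the edgeR fit. The interval of Gfap lies below 0 for knockdown against control, those of Vim, Osmr and Cd109 lie above 0 for overexpression against control, that of Lcn2 for knockdown against control and those of Gfap, Vim and Osmr for overexpression against knockdown, and none of these values passed adjustment over 18289 genes.

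Among the secreted proteins, Serpina3n, which encodes an inhibitor of serine proteases, was the most abundant. The gene (ENSMUSG00000021091) spans chromosome 12 from 104406729 to 104414329, plus strand. Its levels were 14.7, 24.1, 20.04 and 15.1 CPM in controls, 18.8, 20.6, 19.3 and 35.4 with overexpression, and 16.9, 19.0, 17.0 and 18.6 with knockdown. Only overexpression replicate 4 lay outside the control range. Overexpression differed from control by 0.34 ± 0.20 (edgeR adjusted p = 0.843) and by 0.07 without that library, and knockdown differed from control by -0.05 ± 0.20 (adjusted p = 0.989). The 10 related Serpina3 genes of the same cluster were nearly silent: none had enough counts to be tested, and Serpina3a, Serpina3j and Serpina3k had 0 counts in all 12 libraries. Serpina3f and Serpina3g were at 61 and 32 counts in overexpression replicate 4 and at most 8 in any other library. Reads shared among these close copies make small values of any of them uncertain.

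Lcn2 encodes lipocalin-2, which binds iron-carrying siderophores and is made by astrocytes, endothelium and neutrophils in inflammation. Its gene (ENSMUSG00000026822) spans chromosome 2 from 32384633 to 32388252, minus strand. Its counts were 2, 2, 7 and 5 in controls, 12, 63, 0 and 3 with overexpression, and 9, 1, 118 and 16 with knockdown. Knockdown replicate 3 and overexpression replicate 2 held most of the reads, and both Ttr groups also had libraries as low as the controls. The fitted differences from control were 3.04 ± 1.20 for knockdown (unadjusted p = 0.0253, edgeR adjusted p = 0.843) and 2.08 ± 1.28 for overexpression (adjusted p = 0.846). Without knockdown replicate 3 the first was 1.44, and without overexpression replicate 2 the second was 0.25. A library at 0 allows up to 3 counts, so overexpression replicate 3 and control replicates 1 and 2 are not distinguishable.

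Timp1 encodes an inhibitor of matrix metalloproteinases. Its gene (ENSMUSG00000001131) spans chromosome X from 20870166 to 20874735, plus strand, within the neuronal gene Syn1 on the other strand, with no exon in common. It had 7, 6, 15 and 2 counts in controls, 5, 17, 19 and 5 with overexpression, and 5, 10, 13 and 5 with knockdown, beside 216628 counts of Syn1 in all libraries together. Overexpression replicates 2 and 3 had the most counts of all 12 libraries, and the other 2 overexpression libraries lay within the control range. The strand setting used in counting is not known from the sources at hand, so a share of these few reads may belong to Syn1. With no filter on low counts, the difference of Timp1 from control was 0.54 ± 0.46 with overexpression (edgeR adjusted p = 0.781) and 0.24 ± 0.49 with knockdown (adjusted p = 0.982). Of 16 further genes of metalloproteinases and their inhibitors, 12 were tested and 0 called in any comparison. The closest was Timp3, an inhibitor bound to the matrix, which averaged 77.4 ± 6.79 CPM in controls, 103 ± 17.6 with overexpression and 96.1 ± 17.4 with knockdown (log2 differences from control 0.42 ± 0.13, adjusted p = 0.626, and 0.31 ± 0.13, adjusted p = 0.847).

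Osmr encodes the receptor chain for oncostatin M, which pairs with gp130 and signals through STAT3. Osmr (ENSMUSG00000022146) spans chromosome 15 from 6813577 to 6874969, minus strand. It had 4.31, 3.91, 3.99 and 3.77 CPM in controls, 6.32, 4.00, 5.52 and 7.95 with overexpression, and 3.93, 5.02, 3.79 and 5.05 with knockdown. Overexpression replicates 1, 3 and 4 exceeded every control and knockdown library, and replicate 2 lay within the control range. The difference from control was 0.57 ± 0.18 with overexpression (1.48-fold; unadjusted p = 0.00729, edgeR adjusted p = 0.626) and 0.15 ± 0.18 with knockdown (adjusted p = 0.962).

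The tested genes of that pathway lay close to control by their median. Of 19 ligands, receptors, kinases and regulators of gp130 signalling, 16 were tested and 0 called, with medians of 0.045 with overexpression and 0.023 with knockdown. The ligand gene Osm had 1 to 8 counts per library and was not tested. Its counts came to 10 over the controls, 21 with overexpression and 16 with knockdown. Il6st, which encodes gp130 itself, averaged 80.1 ± 4.76 CPM in controls, 89.5 ± 9.06 with overexpression and 78.6 ± 4.89 with knockdown. Its overexpression libraries lay above all knockdown libraries (0.19 ± 0.074, edgeR adjusted p = 0.967), beside 1.23% of all genes. Il6ra, the interleukin-6 receptor chain, differed from control by 0.30 ± 0.13 with overexpression (adjusted p = 0.792). Stat3 differed by 0.14 ± 0.085 (adjusted p = 0.849), with 65.9 CPM in overexpression replicate 4 and 48.9 to 50.6 in the others. Socs3, a STAT3 target that damps the pathway, differed by 0.10 ± 0.25 (adjusted p = 0.962), and without overexpression replicate 4 by -0.23.

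S1pr3 encodes a receptor for the lipid sphingosine-1-phosphate. S1pr3 (ENSMUSG00000067586) spans chromosome 13 from 51408639 to 51422797, plus strand, and its exons overlap those of the antisense gene Gm32834, which had 267 counts beside 3222 for S1pr3. It had 8.74, 9.51, 10.8 and 10.2 CPM in controls, 8.58, 8.99, 10.5 and 11.3 with overexpression, and 9.66, 9.33, 10.1 and 12.5 with knockdown. The groups overlapped nearly fully, and the differences from control were -0.0038 ± 0.12 with overexpression (95% interval -0.26 to 0.25, edgeR adjusted p = 0.997) and 0.08 ± 0.12 with knockdown (-0.17 to 0.33, adjusted p = 0.973). Of 10 other genes that make, break down or sense sphingosine-1-phosphate, all were tested and 0 called. Sphk1, which makes the lipid, differed most, with 0.87 to 2.48 CPM in controls and 2.26 to 4.94 with overexpression (1.06 ± 0.36, adjusted p = 0.658).

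Cd44 encodes a receptor for the matrix sugar hyaluronan that is also carried by leukocytes. Cd44 (ENSMUSG00000005087) spans chromosome 2 from 102811141 to 102901665, minus strand. It had 3.64, 3.27, 3.00 and 1.69 CPM in controls, 3.91, 3.45, 3.80 and 4.40 with overexpression, and 3.01, 2.49, 3.02 and 4.59 with knockdown. The overexpression libraries were tightly grouped, and 3 of them lay above every control. Control replicate 4 was low and knockdown replicate 4 was the highest of all. The difference from control was 0.42 ± 0.22 with overexpression (edgeR adjusted p = 0.836), and 0.23 without control replicate 4. For knockdown it was 0.16 ± 0.22 (adjusted p = 0.969). Of a list of 12 genes drawn up around hyaluronan, 11 were tested and 0 called. Stab1 of that list, which encodes a scavenger receptor, had 15.1 to 18.7 CPM with overexpression and 11.6 to 14.8 with knockdown (0.36 ± 0.10, edgeR adjusted p = 0.855). Those ranges did not overlap, and 1.23% of all genes were higher without overlap in that comparison.

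Cd109 encodes a membrane-anchored protein of the alpha-2-macroglobulin family that binds transforming growth factor beta. Cd109 (ENSMUSG00000046186) spans chromosome 9 from 78615546 to 78716253, plus strand. It had 0.29, 1.19, 1.15 and 0.35 CPM in controls, 1.01, 1.04, 2.72 and 1.69 with overexpression, and 0.73, 1.15, 1.31 and 0.82 with knockdown. Overexpression replicates 3 and 4 exceeded every other library, and control replicates 1 and 4 were the lowest, at 7 and 8 counts. Overexpression differed from control by 1.06 ± 0.44 (unadjusted p = 0.0312, edgeR adjusted p = 0.783) and knockdown by 0.42 ± 0.46 (adjusted p = 0.957). Without overexpression replicate 3 the first value was 0.68.

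Aspg encodes an asparaginase. Aspg (ENSMUSG00000037686) spans chromosome 12 from 112106679 to 112127559, plus strand. It had 3.27, 3.44, 3.69 and 2.56 CPM in controls, 3.20, 5.23, 2.97 and 5.11 with overexpression, and 2.86, 2.77, 2.80 and 3.93 with knockdown. Overexpression replicates 2 and 4 stood above all controls and the other 2 replicates within their range. The differences from control were 0.34 ± 0.20 with overexpression (edgeR adjusted p = 0.843), or 0.20 without overexpression replicate 2, and -0.08 ± 0.21 with knockdown (adjusted p = 0.984).

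The genes did not mark the same overexpression libraries. Replicate 4 was the highest of its group for Gfap, Serpina3n, Osmr, Cd44 and S1pr3, replicate 3 for Vim, Timp1 and Cd109, and replicate 2 for Lcn2 and Aspg, although replicate 2 was the lowest of that group for Gfap, Vim, Osmr and Cd44. Over all 12 libraries and 36 pairs of tested members, log2 CPM was positively related in 30 pairs, with a median Pearson r of 0.31, and 0 pairs passed Benjamini-Hochberg adjustment. The pair with the smallest p was Gfap with Vim (Pearson r = 0.77, permutation p = 0.00204, adjusted p = 0.0734; Spearman rho = 0.64, permutation p = 0.0280, adjusted p = 0.144). Its r was 0.78 with values centred within each group (permutation p = 0.00368, adjusted p = 0.133) and 0.73 without overexpression replicate 4 and knockdown replicate 4, the libraries farthest from the median of Gfap (permutation p = 0.00871). Vim with Osmr came next (r = 0.78, permutation p = 0.00509, adjusted p = 0.0916; rho = 0.63, permutation p = 0.0321, adjusted p = 0.144; r = 0.66 centred within groups, permutation p = 0.0200, adjusted p = 0.211). Without overexpression replicates 3 and 4, the libraries farthest from the median of Vim, r was 0.60 over 10 libraries (permutation p = 0.0956), so a relation apart from those libraries was not shown. Gfap with Lcn2 gave r = -0.63 (permutation p = 0.0268, adjusted p = 0.157) and rho = -0.69 (permutation p = 0.0160, adjusted p = 0.119), and neither passed adjustment. Centred within groups, r was -0.60 (permutation p = 0.0408, adjusted p = 0.211). It was -0.66 without overexpression replicate 4 and knockdown replicate 4, the libraries farthest from the median of Gfap (permutation p = 0.0381). That check kept overexpression replicate 2 and knockdown replicate 3, at 63 and 118 Lcn2 counts, so a relation apart from those libraries was not shown.

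**Figure D3:**
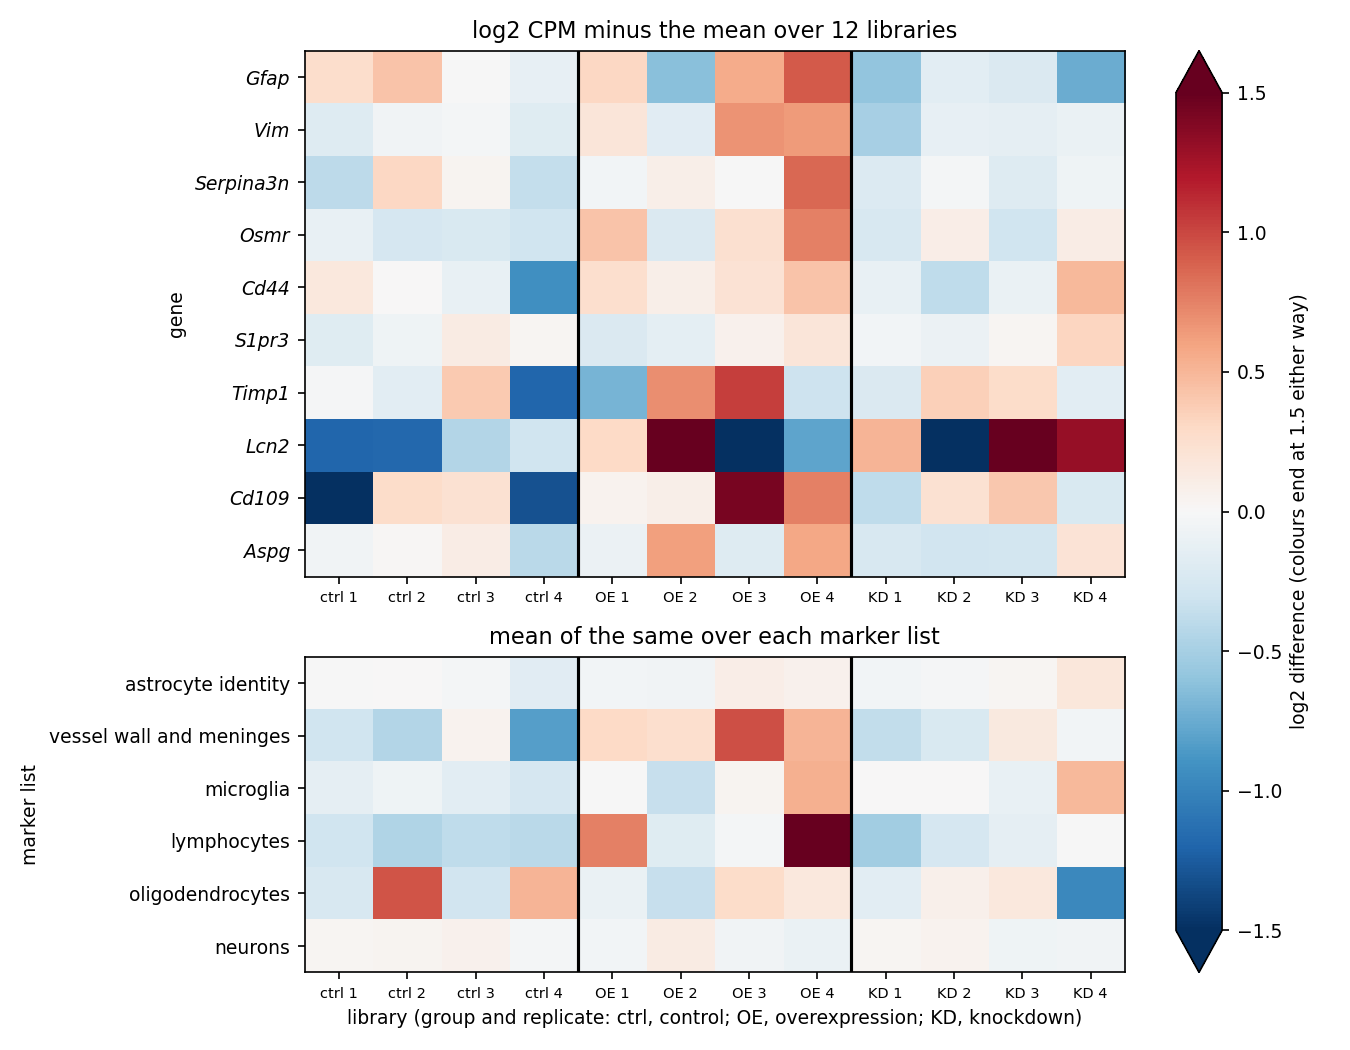
Upper panel, log2 CPM of each gene minus its mean over the 12 libraries, with libraries in columns by group (ctrl, control; OE, overexpression; KD, knockdown) and colours that end at 1.5 either way. Lower panel, the mean of the same quantity over each marker list, where the vessel wall and meningeal list lies between 0.25 and 0.96 in the overexpression libraries and between -0.83 and 0.05 in the controls.

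The summed level of vessel wall and meningeal genes separated the overexpression libraries from the controls. All 24 genes of that list were detected, and their sum was 810 to 1340 CPM with overexpression, 425 to 801 in controls and 531 to 919 with knockdown, so that overexpression and control did not overlap. Of its 24 genes, 23 had fitted values above 0 with overexpression, with a median of 0.96 and 0 called. Microglial genes, 14 of 14 detected, summed to 515 to 1010 CPM with overexpression, 545 to 632 in controls and 612 to 901 with knockdown, replicate 4 of each Ttr group being the highest. Of the 14, 13 had fitted values above 0 in both comparisons with control, with medians of 0.26 and 0.29 and 0 called. Lymphocyte genes, 13 of 13 detected, summed to 41.7 to 135 CPM with overexpression, 56.7 to 77.3 in controls and 46.2 to 56.2 with knockdown. Overexpression replicates 1 and 4 were high, overexpression replicate 3 was the lowest of all 12, and the knockdown libraries lay below all controls. Of the 6 tested, 5 were above 0 with overexpression and 4 with knockdown, with medians of 0.90 and 0.14 and 0 called. Endothelial genes, 12 of 12 detected, summed to 303 to 379 CPM with overexpression, 306 to 386 with knockdown and 283 to 306 in controls. All 12 had fitted values above 0 in both comparisons with control, with medians of 0.21 and 0.19 and 0 called. Genes of ependyma and choroid plexus, 13 of 13 detected, summed to 12.6 to 28.8 CPM with overexpression, 13.2 to 24.8 with knockdown and 10.5 to 24.6 in controls. Of the 10 tested, 9 were above 0 with overexpression and 8 with knockdown, with medians of 0.63 and 0.45 and 0 called. Of all genes tested, 51.4% were above 0 with overexpression and 51.8% with knockdown. With the vessel wall and meningeal score of each library as a covariate, the median over the 9 members in overexpression against control was 0.0046 in place of 0.42. In that fit Vim was at 0.0046 ± 0.23, Gfap at -0.19 ± 0.44, Cd44 at -0.0033 ± 0.35, Cd109 at -0.39 ± 0.55, S1pr3 at -0.20 ± 0.19, Osmr at 0.49 ± 0.31, Aspg at 0.32 ± 0.34, Serpina3n at 0.23 ± 0.35 and Lcn2 at 2.08 ± 1.94 (all edgeR adjusted p = 0.9998). The score did not overlap between overexpression and control, and the standard errors of that fit were wider. Gfap in knockdown against control was -0.69 ± 0.27 in the same fit (adjusted p = 0.998). Without overexpression replicates 3 and 4, a choice made after seeing the data, the median in overexpression against control was 0.33, with Gfap at -0.25 and Vim at 0.12.

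**Figure D4:**
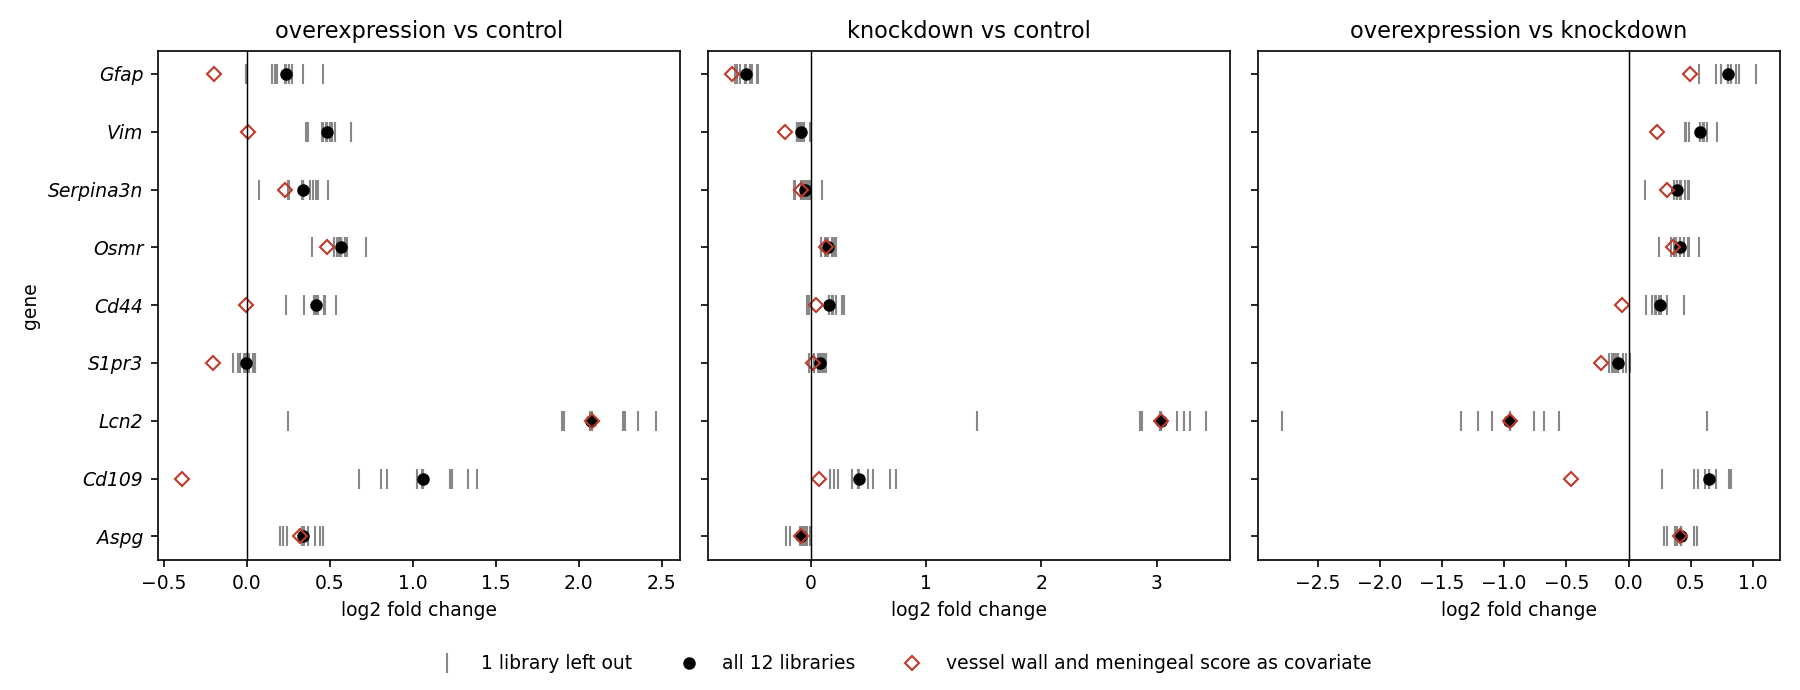
Fitted log2 fold changes of the 9 tested genes (x axis) in the 3 comparisons with all 12 libraries (black), with 1 library left out in turn (grey ticks) and with the vessel wall and meningeal score as covariate (open diamonds). Gfap in knockdown against control stays below 0 throughout, 7 of the 9 genes (Vim, Serpina3n, Osmr, Cd44, Lcn2, Cd109 and Aspg) stay above 0 in every tick of overexpression against control, Gfap and S1pr3 cross it, and Lcn2 moves most with single libraries.

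Among 31 further genes reported in reactive astrocytes, of which 30 were detected, 27 were tested and 0 called by edgeR. With overexpression 22 of the 27 were above 0, beside 51.4% of all genes, with a median of 0.52. With knockdown it was 25 of 27, beside 51.8%, with a median of 0.33. At an unadjusted edgeR p below 0.05, 14 were higher and 1 lower with overexpression, beside 4.58% and 1.68% of all genes. For knockdown 5 were higher and 0 lower, beside 3.85% and 1.83%. The smallest p-values with overexpression belonged to Cp, which encodes the copper carrier ceruloplasmin, with 16.3 to 26.4 CPM against 8.81 to 13.9 in controls (0.99 ± 0.18, edgeR adjusted p = 0.297), and Serping1, the C1 inhibitor of complement, with 6.21 to 16.3 against 1.87 to 5.27 (1.84 ± 0.36, adjusted p = 0.297). Neither range overlapped the controls', beside 1.88% of all genes that were higher without overlap in that comparison, and DESeq2 called both genes. With the vessel wall and meningeal score as covariate Cp was at 0.27 and Serping1 at 0.55 (both edgeR adjusted p = 0.9998), and the median of the 27 genes was 0.20. That score did not overlap between overexpression and control, so score and group cannot be told apart in that fit. C3, the central complement component, followed with 0.43 to 16.5 CPM against 0.38 to 1.00 (3.26 ± 0.85, adjusted p = 0.567), the top value being that of replicate 4. In knockdown libraries the interferon-induced GTPase gene Iigp1 was at 3.37 to 30.4 CPM against 1.17 to 2.76 in controls (2.46 ± 0.93, adjusted p = 0.83) and the class I histocompatibility gene H2-D1 at 57.6 to 206 against 39.7 to 50.4 (1.24 ± 0.50, adjusted p = 0.843). Without knockdown replicate 4 these values were 1.26 for Iigp1 and 0.71 for H2-D1. The overexpression libraries were also widely spread, at 1.74 to 39.8 CPM for Iigp1 and 48.3 to 278 for H2-D1. Iigp1 and H2-D1 are made by many cell types besides astrocytes, and which cells made Cp and Serping1 here was not tested. The list is not independent of earlier results on these libraries.

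Genes that mark astrocytes whether reactive or not lay near control. Of 20, all were tested and 0 called, with medians of 0.038 with overexpression, 0.083 with knockdown and -0.024 between both Ttr groups. Aldh1l1, a folate enzyme used to mark all astrocytes, averaged 50.2 ± 3.41 CPM in controls, 55.9 ± 4.15 with overexpression and 59.8 ± 10.4 with knockdown (0.15 ± 0.10, edgeR adjusted p = 0.857, and 0.25 ± 0.10, adjusted p = 0.843). Aqp4, the water channel of astrocyte endfeet, averaged 105 ± 20.1 CPM in controls, 125 ± 22.5 with overexpression (0.26 ± 0.17, adjusted p = 0.854) and 126 ± 25.2 with knockdown. Atp1b2 of the same list had 350 to 360 CPM with knockdown and 306 to 341 in controls (0.12 ± 0.060, edgeR adjusted p = 0.894). Those ranges did not overlap, as for 2.78% of all genes that were higher with knockdown.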

How the data were processed

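Gene levels were measured by poly(A) RNA-seq in 12 libraries, 4 in each of 3 groups taken from the sample labels. Per the labels' protocols, 500 ng of total RNA went into directional libraries whose adaptors carry molecular identifiers. Per the submitters' processing notes, which give no roles, the tools were featureCounts, UMI-tools, DESeq2 and bcl2fastq 2.20.0.422, on the build GRCm38 (mm10). Not given in the sources used here are the aligner, the annotation, the strand setting and any use of the identifiers against duplicates. The authors deposited whole-number counts per gene, not normalized, and TPM values, which were the counts over 1 length for each gene, rescaled (all of 16476 genes compared, within 0.01 on the log2 scale). A further deposited table, of transformed values, was not used here. Of 55401 identifiers, 55141 matched a symbol, and the rest held 0.00474% of the counts.

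Counts were tested with edgeR 4.0.16 in R 4.3.3 (quasi-likelihood, TMM factors, default filter by group, a fit of 3 group means over 12 libraries), with Benjamini-Hochberg adjustment over 18289 genes and a threshold of 0.05; values after ± are standard errors for log2 differences and SDs (n = 4) for levels. The edgeR fit, read for overexpression against control, and the permutation test of correlations were also run on simulated data. The other methods were not. The data simulated for edgeR had the same spread for all genes, so genes led by single libraries were not covered. Per-library log2 CPM used a prior count of 2 in correlations, tested with 100000 permutations, two-sided. Promoters are those of the RefSeq table; motifs were searched in 250 bases. Alternatives were DESeq2 1.42.0, limma 3.58.1 (voom, and TPM with pseudocounts of 0.1 and 1), other scalings and filters, fits limited to the groups compared, replicate number as a block, a covariate, and each library left out. Libraries of a group differed by more than sampling noise (chi-square per degree of freedom 5.37 to 28.4). Genes were named by rule: all members, Ttr, Osm, Il6st, Stat3, Socs3 and up to 3 genes of each related list with the smallest p per comparison; marker lists and Serpina3 or overlapping genes are given as counts, and the text names a selection of those the rule allows. The members and lists were chosen with earlier results of these data known. The floor of 3 counts covers counting error only. Matplotlib 3.10.9 drew the figures.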

Additional observations from a re-analysis of the deposited data

Results flagged for a closer look

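Among the 10 genes, 3 of 30 gene and group combinations held a library far from the other 3 of its group (gap to the nearest library over the group's range above Dixon's critical value for 4 values); chance flags about 1 in 20. Aspg was at 3.93 CPM (77 counts) in knockdown replicate 4, with the next library at 2.86. Serpina3n was at 35.4 CPM (797 counts) in overexpression replicate 4, with the next at 20.6. Vim was at 27.5 CPM (567 counts) in knockdown replicate 1, below the next at 35.5.

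The genes named from related lists and Ttr gave 12 such cases in 108 combinations. Overexpression replicate 4 was the highest of its group for C3 (16.5 CPM, next 3.05), H2-D1 (278 CPM, next 83.7) and Stat3 (65.9 CPM, next 50.6). Knockdown replicate 4 was the highest for Aldh1l1 (75.4 CPM, next 55.5), Iigp1 (30.4 CPM, next 7.59), S1pr1 (232 CPM, next 169) and Timp4 (30.7 CPM, next 20.6). Control replicate 4 was the highest control for C3 (0.998 CPM, next 0.464) and Has3 (1.60 CPM, next 1.16), and control replicate 2 for Ttr (8.50 CPM, next 0.781). Il6st was lowest in knockdown replicate 1 (71.3 CPM, next 80.4) and Aldh1l1 in overexpression replicate 1 (49.7 CPM, next 57.5).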

How the results depend on the processing

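In 24 alternative settings per comparison, 0 members were called in any, and Gfap in knockdown against control stayed below 0 in all of them. The count of all genes called, 1 in each comparison, was 38, 43 and 11 with DESeq2 (overexpression against control, knockdown against control, overexpression against knockdown). With no filter it was 20 and 22 in the first 2, and with the groups compared alone 0 and 2. It was 0 with limma-voom in the first and the last, 0 with TPM at pseudocounts of 0.1 and 1 for knockdown, 0 with the covariate in all 3, and 3 for knockdown without overexpression replicates 3 and 4. With 1 library left out it was 0 to 4, 0 to 10 and 0 to 2. Replicate numbers did not pair the libraries (12 same-number pairs, r from -0.34 to 0.16, 2 above 0.1; 1 of 12 libraries best with its own number), and the replicate block gave 0 calls for knockdown and 2 for overexpression against knockdown. The members' median was 0.0046 with the covariate (overexpression against control) and 0.17 without overexpression replicates 3 and 4 (overexpression against knockdown); with 1 library left out it was 0.27 to 0.50, -0.025 to 0.15 and 0.28 to 0.49. Of 36 member pairs, 1 passed with TPM and 0 to 1 with 1 library left out. The causes were not tested.

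In overexpression against control, values on the other side of 0 came with the covariate for Gfap (-0.19), Cd44 (-0.0033), Cd109 (-0.39), Il6st (-0.046), Slc4a4 (-0.023), Aqp4 (-0.33), Aldh1l1 (-0.0088), Sphk1 (-0.093), Timp3 (-0.0025), Reck (-0.050), Stab1 (-0.061) and Spp1 (-0.61). Without overexpression replicates 3 and 4, Gfap was at -0.25 and Socs3 at -0.22, and Socs3 was at -0.014 with limma-voom. S1pr3 was at 0.022 with library size only and at 0.046 and 0.040 with TPM. With 1 library left out Gfap ran from -0.0070 to 0.46, S1pr3 from -0.086 to 0.050 and Socs3 from -0.23 to 0.24. In knockdown against control such ranges were -0.15 to 0.097 for Serpina3n, -0.033 to 0.29 for Cd44, -0.018 to 0.13 for S1pr3, -0.053 to 0.015 for Il6st and -2.03 to 0.60 for Ttr. In overexpression against knockdown the covariate gave Cd44 -0.053, Cd109 -0.46, Sphk2 0.021, Sphk1 -0.20, Reck -0.075, Hyal2 0.036, Spp1 -0.58 and Stat3 -0.022. Without overexpression replicates 3 and 4, Cd109 was at -0.00081 and Stat3 at -0.098, and with 1 library left out Lcn2 ran from -2.79 to 0.63, S1pr3 from -0.16 to 0.013 and Stat3 from -0.10 to 0.053. Low counts limit Timp1, Lcn2 and Cd109, where a few reads move the fold.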
